A study of Mus musculus with 3 samples.

Results

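Duct nuclei of the mouse submandibular gland marked by Scnn1b, Wnt4, Kcnq1 and 3 further genes are described here across 3 single-nucleus RNA libraries. They were chosen by detection: a nucleus barcode with at least 500 detected genes and at most 5% of its unique molecular identifiers (UMIs) from mitochondrial genes was a member when at least 3 of the 6 rule genes Wnt4, Scnn1b, Kcnq1, Rph3al, Cyp2f2 and Eepd1 had a UMI. At most 1 of 7 genes of other cell types (Lama2, Pdgfra, Ptprz1, Fhod3, Flt1, Ptprb and Ptprc) was allowed. A member thus need not have a UMI of any particular gene. The rule took 2854 of 27633 barcodes, which were 375 of 8376 in the irradiated + pilocarpine library, 1699 of 8622 in the irradiated + saline library and 780 of 10635 in the non-irradiated library.

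All glands were labelled wild type. The irradiated + pilocarpine glands were taken 90 days after irradiation, per the sample title, with pilocarpine from day 30 to day 90, and the irradiated + saline glands at the same 90 days with saline in its place. The protocol text gives 93 days. The non-irradiated glands were labelled as having had no treatment, so irradiation and saline cannot be told apart in a comparison with them. The number, sex and age of the mice and the hour of collection are not given in the labels. There was 1 library per group, so no difference between groups has a replicate check and none was tested. The intervals given reflect counting error alone. Pilocarpine activates muscarinic acetylcholine receptors and is used to increase salivation.

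Salivary ducts modify the fluid that acini secrete. They take up sodium and chloride through the epithelial sodium channel ENaC, made of the products of Scnn1a, Scnn1b and Scnn1g, and through the chloride channel Cftr, and they secrete potassium. Aldosterone, acting on the mineralocorticoid receptor encoded by Nr3c2, is the textbook regulator of this uptake. In rodents the submandibular gland has in addition granular convoluted tubules, duct segments that store epidermal growth factor and kallikreins. Wnt4 encodes a secreted Wnt ligand, Kcnq1 a voltage-gated potassium channel, and Cyp2f2 a cytochrome P450 enzyme.

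The genes that name these nuclei lie apart in the genome (build GRCm38): Wnt4 at chr4:137277489-137299726 on the plus strand, Scnn1b at chr7:121865038-121918514 on the plus strand and Kcnq1 at chr7:143106362-143427042 on the plus strand. RefSeq promoter windows, 250 bases before to 50 after the start site, were matched for 5 of the 6 rule genes. They were searched on both strands for AGAACA, a core element of DNA bound by steroid hormone receptors, because Nr3c2 RNA was abundant in these nuclei. Of the 5 windows 2 held it, those of Rph3al and Cyp2f2, against 19.0% of all 32851 windows. A match is a description of these letters and not a binding site. The windows of Scnn1b, the channel subunit, and of Rph3al, which encodes a rabphilin-like protein of secretory granules, are shown as one without and one with the element, which is in capitals. Both are 5′ to 3′ on the gene's own strand in GRCm38.p6, Scnn1b at chr7:121864788-121865087 and Rph3al at chr11:75925842-75926141 on the minus strand.
Scnn1b: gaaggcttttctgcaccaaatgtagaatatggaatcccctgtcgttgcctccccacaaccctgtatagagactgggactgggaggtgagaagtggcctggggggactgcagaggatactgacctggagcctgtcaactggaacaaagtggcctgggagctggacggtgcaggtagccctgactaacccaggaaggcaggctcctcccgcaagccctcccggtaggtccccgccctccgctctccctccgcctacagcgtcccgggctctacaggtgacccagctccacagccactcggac
Rph3al: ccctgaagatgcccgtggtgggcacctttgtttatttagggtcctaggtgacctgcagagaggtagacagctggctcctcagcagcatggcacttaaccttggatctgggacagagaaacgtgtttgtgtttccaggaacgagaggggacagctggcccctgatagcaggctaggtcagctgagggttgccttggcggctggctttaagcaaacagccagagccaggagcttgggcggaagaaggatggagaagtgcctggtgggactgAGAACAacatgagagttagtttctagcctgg

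The 3 libraries held 26417958 to 34322111 UMIs in 10161 to 12062 barcodes, and 1425 to 1911 barcodes a library were under the gene minimum. Duct nuclei had a median of 2839 UMIs with pilocarpine, 2590 with saline and 2718 without irradiation, against 2027, 1998 and 1494 UMIs in the other nuclei of the same libraries. A small number of duct nuclei were very deep: 64 with pilocarpine, 163 with saline and 82 without irradiation had over 10000 UMIs and held 58.1%, 38.7% and 37.5% of the UMIs of all duct nuclei. Each pair of libraries shared 28 to 33 barcodes, and 1 duct nucleus barcode was shared, between the pilocarpine and saline libraries. No doublet caller was run.

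Duct nuclei made up 4.48% of the pilocarpine library (95% exact Clopper-Pearson interval 4.04 to 4.94%), 19.7% of the saline library (18.9 to 20.6%) and 7.33% of the non-irradiated library (6.85 to 7.85%). The saline share was thus 12.4 percentage points above the non-irradiated one (Newcombe interval 11.4 to 13.35). The pilocarpine share was 15.2 points below the saline share, a difference of -15.2 (-16.2 to -14.3), and 2.86 points below the non-irradiated share, a difference of -2.86 (-3.52 to -2.19). Detection depends on depth, so the rule was also applied after thinning each barcode to 1000 UMIs, which left out 1010, 1178 and 2221 shallower barcodes. The order remained, with 1.62% with pilocarpine, 8.81% with saline and 3.10% without irradiation, where the same barcodes gave 4.85%, 21.4% and 8.49% at full depth. These are shares of sorted nuclei, in which more duct nuclei and fewer nuclei of other types cannot be told apart.

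**Figure D1:**
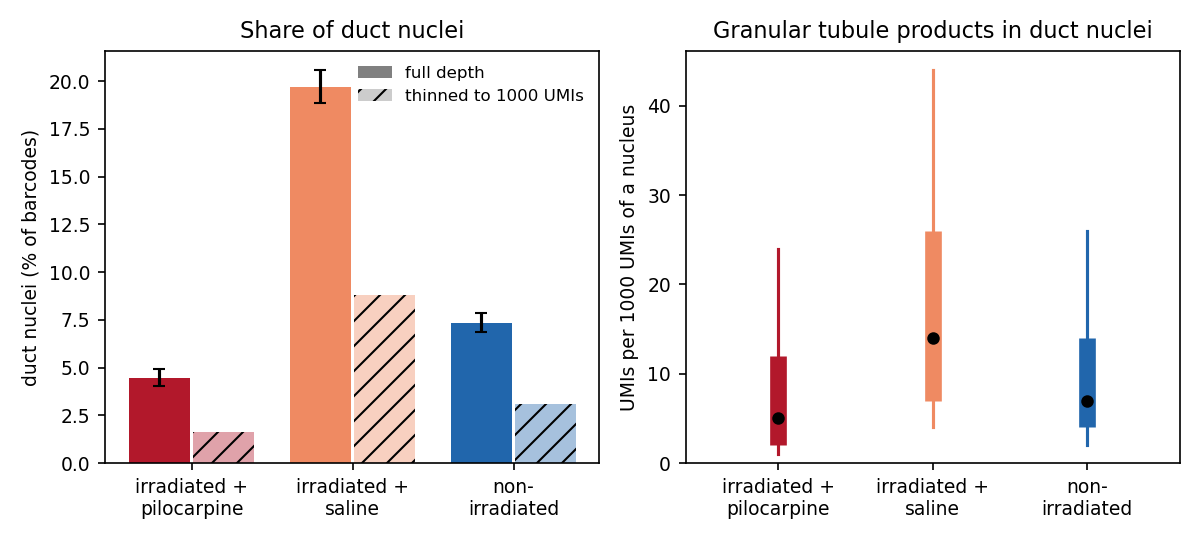
The left panel plots the share of filtered barcodes chosen as duct nuclei in each library (solid bars, with 95% Clopper-Pearson intervals) and the share after thinning to 1000 UMIs (hatched bars). The saline library was highest in both, at 19.7% and 8.81%. The right panel plots UMIs of the 16 granular tubule products per 1000 UMIs of a duct nucleus, with the median as a point, the middle quartiles as a thick line and the 10th to 90th percentile as a thin line. The medians were 5 with pilocarpine, 14 with saline and 7 without irradiation.

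The rule genes chose the nuclei and are given as a description. Scnn1b had a UMI in 66.7% of the duct nuclei with pilocarpine, 72.0% with saline and 65.3% without irradiation, against 2.69%, 1.92% and 1.82% of fibroblast-like nuclei of the same libraries, which had medians of 1535, 1658.5 and 1296 UMIs. For Wnt4 these shares were 39.5%, 42.4% and 47.7% of duct nuclei, against 2.42%, 1.75% and 3.80% of fibroblast-like nuclei. The shares in fibroblast-like nuclei were taken as the level that free RNA can give. Just inside the rule, barcodes with exactly 3 rule genes in the pilocarpine library numbered 182. They had 3012 CPM of Slit2 (UMIs of a gene scaled to a common total over the nuclei summed), a gene that the rule did not use. Just outside it, the 296 barcodes with 2 rule genes had 2013 CPM. The same pairs of values were 6782 and 4856 CPM in the saline library and 3477 and 2792 CPM in the non-irradiated library, so the rule cuts a gradient.

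Genes outside the rule were picked by a high ratio of duct nuclei to other nuclei, and are given as a description. Slit2, which encodes a secreted guidance cue of axons and migrating cells, was at 2593 CPM in duct nuclei with pilocarpine, 6013 CPM with saline and 3142 CPM without irradiation. In the other nuclei it was at 660, 1467 and 809 CPM, so duct nuclei stood 3.93-, 4.10- and 3.89-fold above them. Stxbp5l, encoding a tomosyn-like regulator of vesicle fusion, stood 3.76-, 4.02- and 3.93-fold above the other nuclei. The other nuclei include ducts that missed the rule as well as all other cell types, and every gene of the nuclei clustered counts as used by a rule on the same nuclei, so these folds carry no test.

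Among channel subunits, Scnn1g, which the rule did not use, was at 37.96 CPM with pilocarpine, 68.9 CPM with saline and 45.2 CPM without irradiation, 3.76-, 4.03- and 4.21-fold above the other nuclei. Scnn1a, the alpha subunit gene, was at 56.9, 71.6 and 75.3 CPM and only 1.997-, 1.995- and 2.20-fold above them. Ionocyte-like nuclei, which are rich in proton pumps and anion channels, held more Scnn1a, at 96.0, 167 and 120 CPM. Cftr was at 106 CPM with pilocarpine, 227 CPM with saline and 155 CPM without irradiation in duct nuclei, while ionocyte-like nuclei had 309, 530 and 929 CPM. Nr3c2 was at 466 CPM with pilocarpine, 835 CPM with saline and 480 CPM without irradiation. Hsd11b2, the enzyme that protects the mineralocorticoid receptor from glucocorticoids, had 0, 2 and 0 UMIs in all duct nuclei together, below what 3 counts would give in each library.

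Keratin genes split. Krt7, of simple duct epithelium, was at 58.2 CPM with pilocarpine, 67.7 CPM with saline and 43.5 CPM without irradiation. Krt19 was at most 0.804 CPM in any library, and the basal cell keratins Krt5 and Krt14 at most 1.29 and 2.59 CPM. Chrm3, which encodes a muscarinic receptor through which saliva secretion is triggered, was at 2980, 2331 and 2928 CPM and thus at 0.977, 0.801 and 0.854 of its level in the other nuclei.

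RNA of acinar cells was present in all duct nuclei. Mucl2, an acinar secretory product, had a UMI in 100% of duct nuclei and in 100% of fibroblast-like nuclei of each library. It was at 38162 CPM with pilocarpine, 26488 CPM with saline and 30489 CPM without irradiation in duct nuclei. Fibroblast-like nuclei of these libraries, in the same order, were at 42958, 26730 and 37050 CPM. The 10 acinar markers summed to 54924, 35618 and 42245 CPM in duct nuclei in the same order, against 66351, 61183 and 59064 CPM in the other nuclei.

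**Figure D2:**
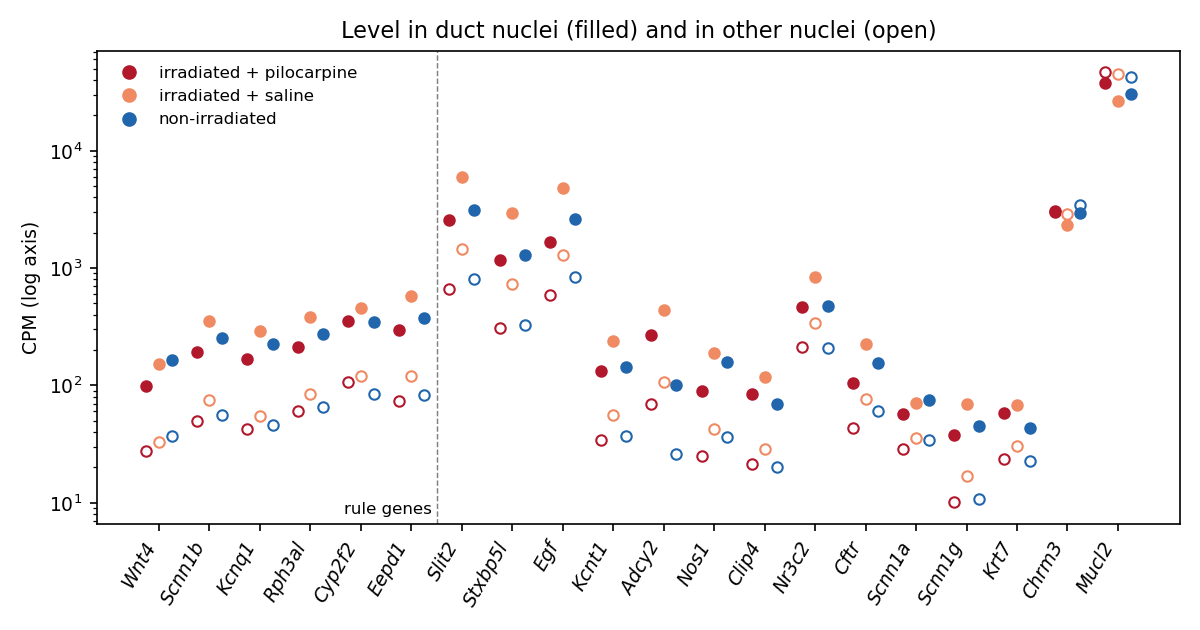
Level in CPM (log axis) of the 6 rule genes, left of the dashed line, and of other genes, in duct nuclei (filled points) and in all other nuclei (open points) of each library, with summed UMIs over nuclei. Slit2 and Egf stood well above the other nuclei in every library, and Chrm3 and Mucl2 stood below them in every library.

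The members were not one kind of barcode. All filtered barcodes were clustered without the 13 genes of the rule and without the genes of any list described here, and cluster numbers are used below. Cluster 4, granular or striated duct-like by all 9 of its markers, held 157 of the duct nuclei with pilocarpine (41.9%), 1079 with saline (63.5%) and 327 without irradiation (41.9%). Slit2 and Stxbp5l led it, and 58.8% of its nuclei were members. Cluster 7, unnamed and led by genes that include Bpifa2, which encodes a salivary secretory protein, as well as Klk1b21 and Egf, held 96, 294 and 258 duct nuclei. Cluster 8 (31, 49 and 59 duct nuclei) and cluster 14 (19, 108 and 54) were unnamed. Their nuclei were deep, with median UMI numbers of 11670 in cluster 8 and 5773 in cluster 14. Cluster 14 was led by ionocyte genes such as Ascl3. Cluster 12, macrophage-like, held 22, 67 and 20, and the remaining duct nuclei lay in other clusters.

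Scnn1g and Egf, which neither the rule nor the clustering used, had lower levels in the duct nuclei outside cluster 4, as a description with no test. Scnn1g was at 87.2 CPM with pilocarpine, 113 CPM with saline and 95.7 CPM without irradiation in the duct nuclei of cluster 4, and at 20.002, 47.4 and 35.7 CPM in those of cluster 7. Egf, one of the markers that named cluster 4, was at 4841, 7524 and 5236 CPM in cluster 4 and at 1472, 3651 and 2133 CPM in cluster 7. Levels of the rule genes are not compared between clusters, since a shallow barcode can pass the rule only at a high CPM of them. Duct nuclei of the other clusters shown were deeper in every library, and cluster 4 gave 11.9% of the UMIs of all duct nuclei with pilocarpine, 32.9% with saline and 15.2% without irradiation. The main comparisons below are given over all duct nuclei and again within cluster 4.

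**Figure D3:**
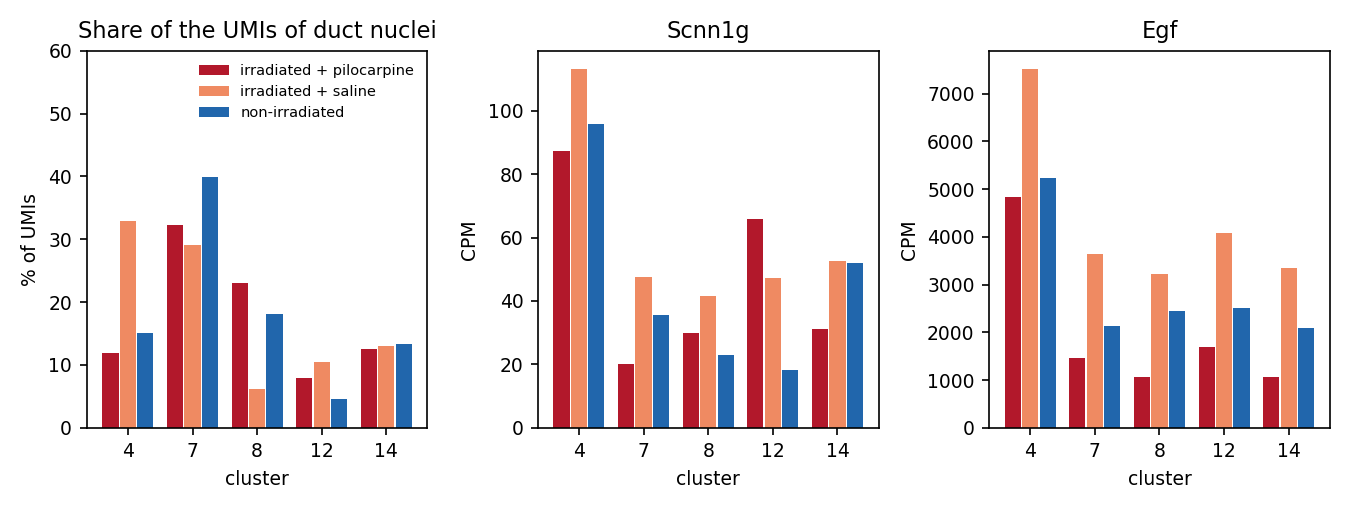
Duct nuclei by cluster and library: percent of the UMIs of all duct nuclei in each cluster (left), Scnn1g (middle) and Egf (right) in CPM of summed UMIs. Scnn1g was at 87.2 to 113 CPM in cluster 4 of the 3 libraries and at most 65.8 CPM in the other clusters shown.

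The first comparison asks how duct nuclei of irradiated glands given saline differed from those of non-irradiated glands. Of 12775 genes that reached 30 UMIs over the pair of libraries, 299 (2.34%) were over 2-fold higher with saline and 189 (1.48%) over 2-fold lower, on the log2 scale of CPM + 1. In cluster 4, 5447 of 11739 genes that reached 10 UMIs were higher with saline. The median gene differed by -0.02, and by -0.03 in cluster 4. With 1 library a group this is a fold and not a test.

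Adcy2, which encodes an adenylyl cyclase that makes cyclic AMP, separated both irradiated libraries from the non-irradiated one. It was at 269 CPM with pilocarpine, 437 CPM with saline and 101 CPM without irradiation over all duct nuclei. In cluster 4 the values were 774, 748 and 278 CPM. The ratio of saline to non-irradiated was 4.32 (3.87 to 4.83) over all duct nuclei and 2.69 (2.28 to 3.20) in cluster 4, and that of pilocarpine to non-irradiated was 2.65 (2.33 to 3.03) and 2.78 (2.25 to 3.45). In cluster 4 a UMI of Adcy2 was found in 46.5% of nuclei with pilocarpine, 48.0% with saline and 24.2% without irradiation, whose median depths were 1524, 1981 and 1456 UMIs. Adcy2 also had a ratio of 4.13 in the other nuclei, so the difference was not particular to duct nuclei. The gene lies at chr13:68620043-68999541 on the minus strand.

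Ces1d, a carboxylesterase gene, was at 95.8 CPM with pilocarpine, 215 CPM with saline and 47.1 CPM without irradiation. Its ratio of saline to non-irradiated was 4.57 (3.90 to 5.39) over all duct nuclei and 2.87 (2.17 to 3.86) in cluster 4, and the other nuclei had 7.94 (7.08 to 8.91). Slit2 was at 8062, 10352 and 7286 CPM in cluster 4, a ratio of saline to non-irradiated of 1.42 (1.37 to 1.47). It was highest with saline and the other libraries differed less. Igsf21, which encodes an immunoglobulin superfamily adhesion protein, went the other way. It was at 14.2 CPM with pilocarpine, 23.9 CPM with saline and 103 CPM without irradiation over all duct nuclei, and at 39.9, 35.0 and 260 CPM in cluster 4. In cluster 4 it was found in 10 of 157 nuclei with pilocarpine, 73 of 1079 with saline and 94 of 327 without irradiation. The cluster 4 ratio was 0.135 (0.102 to 0.178) for saline and 0.154 (0.0751 to 0.284) for pilocarpine, each to non-irradiated, and the other nuclei had 0.321 and 0.205. Igsf21 lies at chr4:140026846-140246784 on the minus strand.

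Granular tubule products were higher with saline. All 16 of the list, among them Egf, Crisp3 and the Klk1b kallikreins, had a higher CPM with saline than without irradiation, 12 of them over 2-fold, with a median log2 ratio of 1.40. Within cluster 4 all 16 were again higher, with a median of 0.93, and the summed products were at 25594 CPM with saline and 17224 CPM without irradiation. Egf was at 1684 CPM with pilocarpine, 4827 CPM with saline and 2637 CPM without irradiation over all duct nuclei, and at 4841, 7524 and 5236 CPM in cluster 4. The ratio of saline to non-irradiated for Egf was thus 1.83 over all duct nuclei and 1.44 (1.38 to 1.495) in cluster 4. Klk1b21 was at 454, 795 and 388 CPM in cluster 4, with a ratio of 2.05 (1.78 to 2.37). Over all duct nuclei Klk1b5 was at 166, 540 and 217 CPM and Klk1b24 at 16.4, 48.9 and 11.7 CPM. The Klk1b genes are near-identical copies, so counts of single members are uncertain.

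Counted per nucleus after thinning to 1000 UMIs, the granular products had a median of 5 UMIs with pilocarpine, 14 with saline and 7 without irradiation. The 90th percentiles were 24, 44 and 26 UMIs. Duct nuclei with at least 20 such UMIs were 15.1% (11.6 to 19.3%) with pilocarpine, 34.3% (31.9 to 36.6%) with saline and 14.8% (12.3 to 17.7%) without irradiation, and 13.7%, 33.8% and 14.4% unthinned. The limit of 20 cuts a continuous range, and 22, 205 and 56 nuclei lay between 17 and 22. The granular products were also higher with saline in the other nuclei, with a median log2 ratio of 1.00.

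Type I interferon response genes were higher in both irradiated libraries. Of 25 genes that reached 10 UMIs over the pair of libraries, 24 were higher with saline than without irradiation, 14 over 2-fold, with a median log2 ratio of 1.08 over all duct nuclei and 1.36 in cluster 4. Against non-irradiated, pilocarpine had 22 of 23 higher, with medians of 1.01 and 1.22. Oasl2, which encodes an oligoadenylate synthetase-like antiviral protein, was at 57.4 CPM with pilocarpine, 84.2 CPM with saline and 23.2 CPM without irradiation, and at 127, 114 and 25.8 CPM in cluster 4. Usp18, a negative regulator of interferon signalling, was at 36.2, 56.6 and 12.8 CPM, and Ifi44, an interferon-induced gene, at 15.1, 34.98 and 4.74 CPM. In cluster 4 Usp18 was at 25.4, 42.8 and 5.52 CPM and Ifi44 at 18.2, 35.0 and 7.36 CPM, from at most 7 UMIs each outside the saline library. The list was not higher in duct nuclei alone, since its median in the other nuclei was 1.11 for saline over non-irradiated.

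ENaC and aldosterone pathway genes were near level in the same comparison. Of 22 genes, 13 were higher and 9 lower, with a median log2 ratio of 0.11, and of -0.04 in cluster 4. The rule gene Scnn1b is among the 22, and its level depends in part on the choice of the nuclei. The 2 genes over 2-fold higher with saline were Sgk1, the kinase that aldosterone and glucocorticoids induce, and Fkbp5, a chaperone gene induced by glucocorticoids. Sgk1 was at 32.4 CPM with pilocarpine, 87.9 CPM with saline and 32.4 CPM without irradiation, and at 69.0, 134 and 66.3 CPM in cluster 4. Fkbp5 was at 137, 365 and 178 CPM over all duct nuclei and at 327, 553 and 322 CPM in cluster 4, a ratio of saline to non-irradiated of 1.72 (1.47 to 2.02) there. Sgk1 was level between the pilocarpine and non-irradiated libraries in both views, and Fkbp5 in cluster 4. The level in nuclei of the same library with at least 2 of the 7 genes of other cell types was also subtracted. The log2 ratio of saline to non-irradiated for Fkbp5 then turned to -2.85. Levels below the subtracted one were set to 0, so such a turn can come from that floor and does not show a reversal. Nr3c2 was at 1089, 1292 and 882 CPM in cluster 4, a ratio of saline to non-irradiated of 1.47 (1.33 to 1.62).

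Other ion transport genes were mixed: 14 of 28 were higher and 14 lower, with a median of 0.03 and of -0.21 in cluster 4. Slc12a2, the sodium, potassium and chloride cotransporter gene that is prominent in acini, was at 2119 CPM with pilocarpine, 1324 CPM with saline and 1819 CPM without irradiation, and Ano1, the calcium-activated chloride channel gene of acini, at 405, 191 and 343 CPM. Both were lowest with saline, as were the summed acinar markers given above, whose part in this was not tested. In cluster 4 Slc12a2 was at 323, 225 and 547 CPM and Ano1 at 10.9, 17.1 and 75.5 CPM, so that both were highest without irradiation there. Wnt receptor and secretion genes had a median of -0.23 with 7 of 18 higher, and of 0.03 in cluster 4. Lgr4, the R-spondin receptor gene, was at 81.5, 131 and 71.4 CPM, and at 189, 188 and 129 CPM in cluster 4. Axin2, a target of canonical Wnt signalling, was at 1.73, 1.88 and 0.837 CPM, so that a difference could not be detected at this depth.

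Wnt ligand genes other than Wnt4 were scarce, and Wnt5b was at 31.1, 19.2 and 16.7 CPM. In cluster 4 it was at 29.1, 10.997 and 23.9 CPM, from 8, 27 and 13 UMIs. Of 19 ligand genes, the rule gene Wnt4 among them, 5 reached 10 UMIs, with a median log2 ratio of 0.17 for saline over non-irradiated. Over the 3 that reached 10 UMIs in cluster 4 it was -0.54. That is the ratio of Wnt4 itself, at 253 CPM with saline and 366 CPM without irradiation. As Wnt4 helped to choose the nuclei, this median says nothing of the other ligands. In the same comparison 18 Wnt transducers, inhibitors and targets had a median of -0.09, and of -0.24 in cluster 4, and 36 muscarinic and calcium signalling genes -0.04 and -0.07. Duct transcription factors had a median of -0.06, and of -0.19 in cluster 4, where 7 were higher and 15 lower while their summed level had a ratio of 1.21. Keratin and progenitor genes had -0.08 and -0.10. The median of xenobiotic and retinoid metabolism genes turned, with 0.20 over all duct nuclei and -0.16 in cluster 4, where 6 were higher and 11 lower. Their summed level had a ratio of 1.38 over all duct nuclei and 1.10 (1.02 to 1.19) in cluster 4. That sum includes Ces1d, with 700 of 2455263 UMIs with saline and 54 of 543201 without irradiation in cluster 4. The summed ratio thus does not speak for the list without Ces1d. Unfolded protein response genes had 0.27 and 0.23. Hspa5, which encodes the main chaperone of the endoplasmic reticulum, was at 74.2, 82.55 and 62.5 CPM over all duct nuclei and at 58.1, 72.9 and 64.4 CPM in cluster 4. Pigr, the receptor gene that carries immunoglobulin A into saliva, was at 9.49, 4.16 and 43.5 CPM, and at 18.2, 1.22 and 23.9 CPM in cluster 4, from 5, 3 and 13 UMIs.

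Of 29 p53 target and DNA damage genes, 25 were higher with saline than without irradiation, 3 over 2-fold, with a median log2 ratio of 0.44, where 49.5% of all genes were higher. In cluster 4, 15 of 24 were higher, 6 over 2-fold, with a median of 0.19, where 5447 of 11739 genes were higher and 760 over 2-fold. In the other nuclei 26 of 29 were higher, with a median of 0.71. Cdkn1a, which encodes the cell cycle inhibitor p21, had 3 UMIs with pilocarpine, 35 with saline and 1 without irradiation in all duct nuclei, or 1.29, 4.69 and 0.279 CPM. It is at the limit of detection in the first and last of these. Of 17 immediate early genes 14 were higher, with a median of 0.38, and of 0.13 in cluster 4. Jun, a transcription factor gene of that group, was at 16.0, 45.3 and 16.2 CPM, and at 21.8, 58.6 and 31.3 CPM in cluster 4.

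Clock genes differed between irradiated and non-irradiated duct nuclei in single members. Arntl, the core clock activator, was at 10.4 CPM with pilocarpine, 5.90 CPM with saline and 48.0 CPM without irradiation, and Npas2, its partner, at 10.8, 4.96 and 50.2 CPM. In cluster 4 Arntl was at 10.9, 7.33 and 36.8 CPM and Npas2 at 18.2, 4.48 and 36.8 CPM, from 3 to 20 UMIs. Per2, a clock repressor, was at 67.7, 76.5 and 21.8 CPM. After the subtraction described for Fkbp5 its log2 ratio to non-irradiated was -0.30 for pilocarpine and for saline. Equal values are what a level set to 0 in both irradiated libraries gives, and they do not show a reversal. In cluster 4 Per2 was at 39.9, 59.5 and 16.6 CPM. Arntl was also lower in the other nuclei, with a ratio of saline to non-irradiated of 0.142. The hour of collection is not in the labels, so it cannot be told apart from the group.

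Rnf212b and Padi4 had no UMI in the duct nuclei of either irradiated library. Rnf212b had 103 UMIs without irradiation, which puts it at least 71.5-fold lower with saline and at least 22.2-fold lower with pilocarpine, against a floor of 3 UMIs per library. Padi4 had 61 UMIs there, at least 42.3-fold and 13.1-fold lower. The other nuclei showed the same, with 0.129, 0.230 and 27.9 CPM of Rnf212b in the pilocarpine, saline and non-irradiated libraries.

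**Figure D4:**
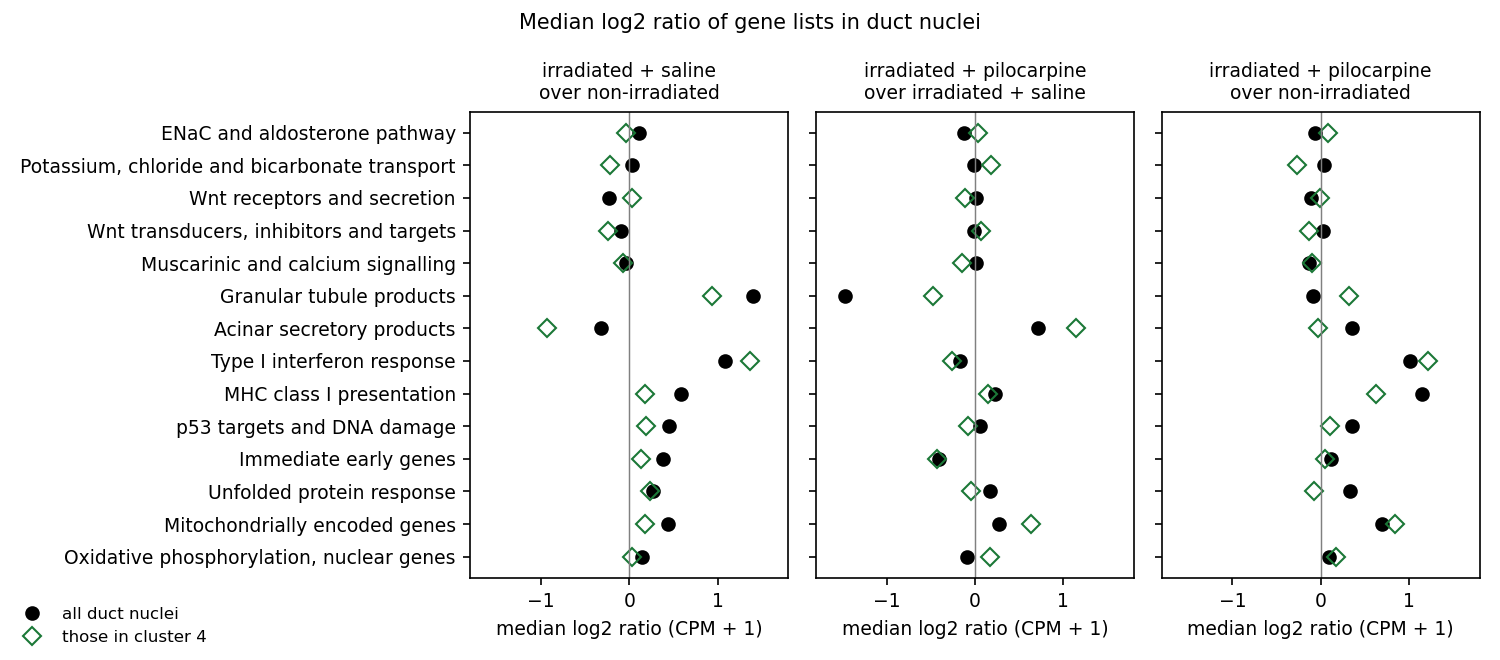
Median log2 ratio of CPM + 1 for 14 gene lists in the 3 comparisons, over all duct nuclei (black points) and over those in cluster 4 (open diamonds). The granular tubule list was at 1.40 and 0.93 for saline over non-irradiated and at -1.47 and -0.47 for pilocarpine over saline, and interferon genes were near or above 1 in both comparisons with the non-irradiated library.

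The second comparison asks how duct nuclei of irradiated glands given pilocarpine differed from those given saline. Of 12543 genes, 204 (1.63%) were over 2-fold higher with pilocarpine and 339 (2.70%) over 2-fold lower, with a median gene at 0.05, and at -0.02 in cluster 4. In cluster 4, 5479 of 11515 genes that reached 10 UMIs were higher with pilocarpine. The saline library is shared with the first comparison. The values of both comparisons are thus given side by side, and their likeness is not a result.

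Granular tubule products were lower with pilocarpine than with saline. All 16 were lower over all duct nuclei, 14 over 2-fold, with a median log2 ratio of -1.47. In cluster 4 the difference was smaller: 13 were lower and 3 higher, the median was -0.47, and the sum was 18241 CPM with pilocarpine and 25594 CPM with saline. Egf had a ratio of pilocarpine to saline of 0.349 (0.337 to 0.361) over all duct nuclei and 0.643 (0.608 to 0.680) in cluster 4. Crisp3, which encodes a cysteine-rich secretory protein, had 0.342 (0.327 to 0.358) and 0.638 (0.594 to 0.686). In the other nuclei all 16 were lower as well, with a median of -0.99, and Egf had 0.454 and Crisp3 0.402. The difference was thus not particular to duct nuclei. The share of duct nuclei in cluster 4, and the share of UMIs from very deep barcodes, moved with this difference, as given above, and what part they have in it was not tested beyond the values within cluster 4.

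Of the 22 ENaC and aldosterone pathway genes, 6 were higher and 16 lower with pilocarpine, with a median log2 ratio of -0.12, against 11 higher and a median of 0.03 in cluster 4. The rule gene Scnn1b, whose level depends in part on the choice of the nuclei, had a ratio among the lowest over all duct nuclei. Sgk1 had a ratio of 0.368 (0.286 to 0.468), and 0.513 (0.305 to 0.815) in cluster 4. Fkbp5 had 0.375 (0.333 to 0.422), and 0.591 (0.472 to 0.732) in cluster 4. Scnn1a turned round between the 2 views: it was lower with pilocarpine over all duct nuclei, at 56.9 and 71.6 CPM, and higher in cluster 4, at 149 and 98.2 CPM, a ratio of 1.52 (1.06 to 2.12). Krt7 was higher in cluster 4, at 189 CPM with pilocarpine, 90.0 CPM with saline and 77.3 CPM without irradiation.

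Acinar secretory products were higher with pilocarpine, with 8 of 10 genes higher and a median log2 ratio of 0.71. In cluster 4 all 9 that reached 10 UMIs were higher, with a median of 1.14. That median is the ratio of Bpifa2, from 7 UMIs with pilocarpine and 27 with saline. The other nuclei had 8 higher and 2 lower, with a median of 0.08. Mucl2 was at 48843 CPM with pilocarpine, 15448 CPM with saline and 28849 CPM without irradiation in cluster 4. Markers of other cells moved too. The 6 T or NK cell markers summed to 39.3 CPM with pilocarpine, 15.01 CPM with saline and 17.3 CPM without irradiation in duct nuclei, the 8 myoepithelial markers to 98.4, 37.1 and 56.9 CPM, and the 7 fibroblast markers to 105, 68.6 and 123 CPM, with Oxtr of the myoepithelial list at 0 in every library. The 7 blood endothelial markers went the other way, at 9.06, 26.0 and 33.5 CPM, and the 6 macrophage markers were at 61.7, 50.4 and 42.7 CPM. The rule limited Lama2 and Pdgfra of the fibroblast list and Flt1 and Ptprb of the blood endothelial list. It also limited Fhod3, a leading gene of myoepithelial-like cluster 6. Ptprc, limited too, was a leading gene of cluster 13, as was Skap1 of the T or NK list. In duct nuclei of macrophage-like cluster 12 Ptprc was at 230, 178 and 176 CPM. The sums of all these lists thus can depend in part on the choice of the nuclei. Several of the 10 genes most above with pilocarpine were almost absent from cluster 4. Sphk1, a lipid kinase gene, had 1 UMI with pilocarpine and 0 with saline there, Stac 0 and 0, Skap1, a T cell adaptor gene, 1 and 9, and Dscam 1 and 1.

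Duox2, which encodes an NADPH oxidase that makes hydrogen peroxide, also among those 10, did have UMIs in cluster 4. It was at 28.5 CPM with pilocarpine, 8.98 CPM with saline and 4.18 CPM without irradiation over all duct nuclei, from 66, 67 and 15 UMIs. In cluster 4 it was at 120, 12.6 and 18.4 CPM, from 33, 31 and 10 UMIs, a ratio of pilocarpine to saline of 9.49 (5.64 to 16.0). These UMIs came from few nuclei: 5 of 157 with pilocarpine, 9 of 1079 with saline and 3 of 327 without irradiation had any, and 1 nucleus held 11 of the 33. As UMIs of 1 nucleus are not independent, the interval of the ratio is too narrow. The share of nuclei with a Duox2 UMI was 3.18% (1.04 to 7.28%) with pilocarpine and 0.834% (0.382 to 1.58%) with saline. Duox2 lies at chr2:122279247-122298449 on the minus strand.

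MHC class I genes stood highest with pilocarpine. Of 15 genes, 14 were higher with pilocarpine than with saline, 3 over 2-fold, with a median log2 ratio of 0.22, where 54.4% of all genes were higher. In cluster 4 only 8 of 13 were higher, with a median of 0.15. In the other nuclei 14 were higher, with a median of 0.58, and the T or NK cell markers given above were also higher with pilocarpine in duct nuclei, and their part in this was not tested. H2-K1, a classical class I gene, was at 390 CPM with pilocarpine, 193 CPM with saline and 160 CPM without irradiation over all duct nuclei, and at 349, 166 and 160 CPM in cluster 4. B2m, which encodes the shared light chain, was at 40.5, 30.0 and 17.6 CPM over all duct nuclei and at 79.9, 37.5 and 33.1 CPM in cluster 4. H2-Q7, a nonclassical class I gene, was at 90.6, 42.8 and 19.5 CPM, and at 134, 62.3 and 27.6 CPM in cluster 4, where it was found in 18.5%, 12.0% and 3.98% of nuclei. After the subtraction described for Fkbp5, and with the same limit, its log2 ratio of saline to non-irradiated turned to -2.46. H2 genes are close copies, so counts of single members are uncertain. Interferon response genes had 8 of 25 higher with pilocarpine than with saline and a median of -0.18, or -0.26 in cluster 4.

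**Figure D5:**
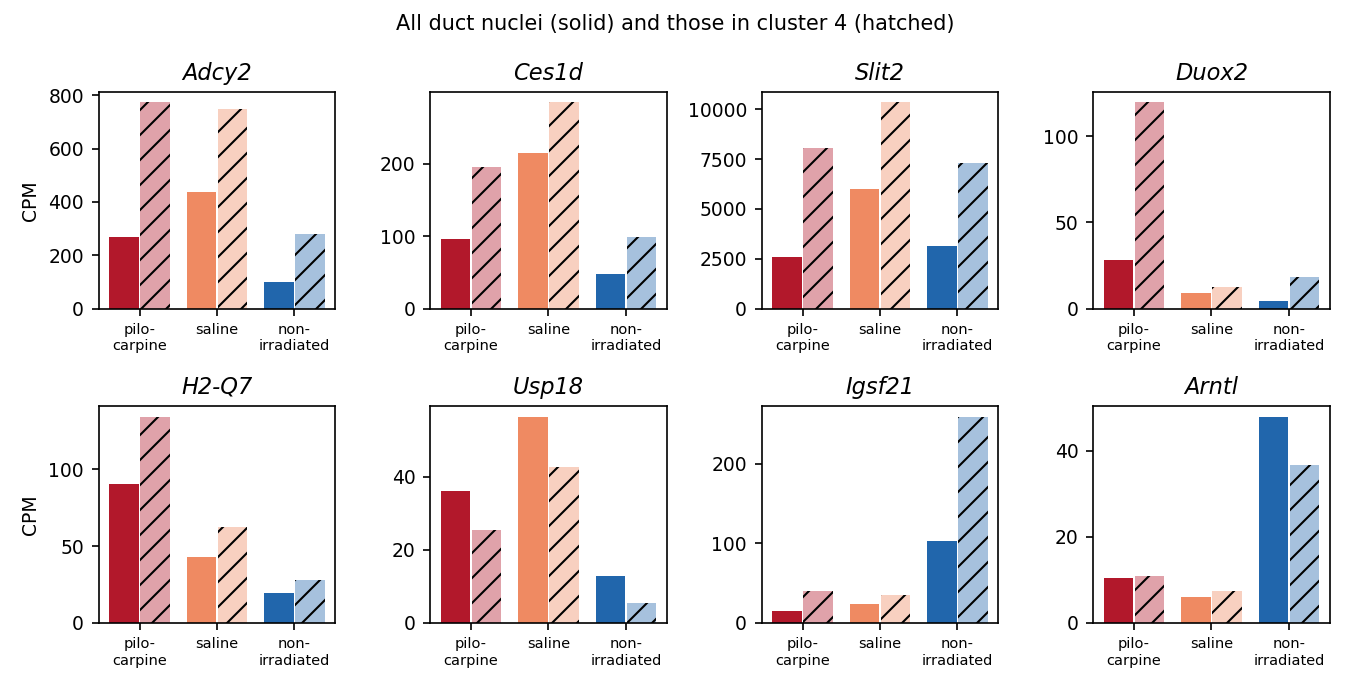
Level in CPM of 8 genes in each library over all duct nuclei (solid bars) and over those in cluster 4 (hatched bars), from summed UMIs. Adcy2 was higher in both irradiated libraries and Igsf21 and Arntl lower, Duox2 and H2-Q7 were highest with pilocarpine, and Ces1d, Slit2 and Usp18 with saline.

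The third comparison sets duct nuclei of irradiated glands given pilocarpine against those of non-irradiated glands, and shares a library with each of the others. Of 11240 genes, 219 (1.95%) were over 2-fold higher with pilocarpine and 100 (0.890%) over 2-fold lower, with a median gene at 0.01, and at -0.06 in cluster 4. In cluster 4, 3763 of 8601 genes that reached 10 UMIs were higher with pilocarpine. Granular tubule products were near level, with 7 of 16 higher and a median log2 ratio of -0.08. Within cluster 4, 13 of the 16 were higher, with a median of 0.32. The summed products in cluster 4 were at 18241 CPM with pilocarpine and 17224 CPM without irradiation. MHC class I genes were higher in all 14 that had at least 10 UMIs, 8 over 2-fold, with a median of 1.14, and of 0.63 in cluster 4. H2-Q7 had a ratio of 4.64 (3.52 to 6.17), and of 4.87 (2.61 to 9.54) in cluster 4. H2-Q6, its neighbour, had 5.39 (3.82 to 7.76), and the other nuclei 7.81.

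Bpifa2 had 106 UMIs with pilocarpine, 522 with saline and 4 without irradiation in duct nuclei, a ratio of pilocarpine to non-irradiated of 41.0 (15.5 to 153). In cluster 4 it had 7, 27 and 0 UMIs. Duct nuclei were thus at 45.7, 70.0 and 1.12 CPM, and the other nuclei at 37.9, 85.1 and 1.59 CPM, so the difference was not particular to ducts. Smgc, a mucin-like product of intercalated duct and proacinar cells, was at 5.61 CPM with pilocarpine, 43.0 CPM with saline and 290 CPM without irradiation over all duct nuclei, and at 3.63, 36.7 and 46.0 CPM in cluster 4. After the subtraction described for Fkbp5, and with the same limit, its log2 ratio of saline to non-irradiated turned to 5.01. The 13 genes encoded by the mitochondrial genome summed to 421 CPM with pilocarpine, 356 CPM with saline and 261 CPM without irradiation over all duct nuclei. Their median log2 ratio of pilocarpine to non-irradiated was 0.69, and 0.84 in cluster 4. Nuclear genes for oxidative phosphorylation, 50 in number, were near level between pilocarpine and non-irradiated, with a median log2 ratio of 0.09, and of 0.17 in cluster 4.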

How the data were processed

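Single-nucleus RNA of 3 mouse submandibular gland libraries was deposited by the authors as counts of UMIs per gene and barcode, made with Cell Ranger 7.0.1 on GRCm38 per the submitters' processing notes and not normalized. Nuclei were sorted by DAPI stain, per the labels' protocols. Intron counting and the annotation are not given in the sources used here. UMIs were summed over duct nuclei per library and expressed as CPM. Ratios have exact conditional binomial 95% intervals, CPM ratios of lists are on log2(CPM + 1) for genes that reached 10 UMIs over the pair of libraries, and counts of genes used 30. Clustering used 2000 variable genes without 706 rule, list and marker genes, 30 principal components, 15 neighbours and leidenalg 0.10.2 at resolution 1. Cluster names were rebuilt here. Members, lists and named genes were chosen with earlier results of these data known. Named genes were the 10 most above and 10 most below in each comparison by the bound of the interval that lies closest to a ratio of 1, the 20 leading identity genes, list extremes and a fixed set. In the library where it was higher, each of those 10 had to have a CPM in duct nuclei at least that of the other nuclei. Genes more abundant in the other nuclei there were thus passed over. Mitochondrial, ribosomal and predicted genes were among those left out of the ranking. B2m, Slc12a2 and Axin2 fall outside that rule and were chosen after their values were seen, as were the values within cluster 4. The ratio and the 2-fold call were run on simulated counts drawn independently. These cannot show how the intervals hold where UMIs of a nucleus go together. Positions come from GENCODE vM21 by gene ID, for all 20 genes looked up. Some items are not reported here. PCR copies were removed by UMI, and UMIs of 1 nucleus are not independent.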

Additional observations from a re-analysis of the deposited data

How the results depend on the processing

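No alternative turned the order of the shares or the sign of their differences. With a minimum of 200 genes shares were 3.8% with pilocarpine, 17.3% with saline and 6.58% without irradiation, with differences of 10.7 (saline minus non-irradiated) and -13.5 (pilocarpine minus saline). With a minimum of 1000 genes shares were 5.09% with pilocarpine, 23% with saline and 10.8% without irradiation, with differences of -17.9 (pilocarpine minus saline) and -5.68 (pilocarpine minus non-irradiated). With 2 rule genes shares were 8.01% with pilocarpine, 27% with saline and 11.3% without irradiation, with differences of 15.7 (saline minus non-irradiated) and -19 (pilocarpine minus saline). With 4 rule genes shares were 2.3% with pilocarpine, 12.6% with saline and 4.17% without irradiation, with differences of 8.45 (saline minus non-irradiated), -10.3 (pilocarpine minus saline) and -1.86 (pilocarpine minus non-irradiated). With no gene of other cell types allowed shares were 3.19% with pilocarpine, 16.7% with saline and 5.79% without irradiation, with differences of 10.9 (saline minus non-irradiated) and -13.6 (pilocarpine minus saline). With the rule applied after thinning shares were 1.62% with pilocarpine, 8.81% with saline and 3.1% without irradiation, with differences of 5.71 (saline minus non-irradiated), -7.2 (pilocarpine minus saline) and -1.49 (pilocarpine minus non-irradiated). With all nuclei of clusters 4 and 14 shares were 20.8% with saline and 6.79% without irradiation, with differences of 14 (saline minus non-irradiated) and -16.4 (pilocarpine minus saline). With the deepest 10% of barcodes left out shares were 3.19% with pilocarpine, 16.3% with saline and 4.5% without irradiation, with differences of -13.1 (pilocarpine minus saline) and -1.32 (pilocarpine minus non-irradiated). With cluster 4 only shares were 1.87% with pilocarpine, 12.5% with saline and 3.08% without irradiation, with differences of 9.44 (saline minus non-irradiated), -10.6 (pilocarpine minus saline) and -1.2 (pilocarpine minus non-irradiated). With clusters 8 and 14 left out shares were 3.88% with pilocarpine, 17.9% with saline and 6.27% without irradiation, with differences of -14 (pilocarpine minus saline).

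Counts of genes over 2-fold apart, where they moved by over 1.5 times, were as follows. With no gene of other cell types allowed they were 137 higher for pilocarpine over non-irradiated. With the rule applied after thinning they were 130 higher for pilocarpine over non-irradiated. With all nuclei of clusters 4 and 14 they were 126 higher for pilocarpine over non-irradiated. With a pseudocount of 10 CPM they were 53 higher and 36 lower for saline over non-irradiated, 23 higher and 81 lower for pilocarpine over saline, 40 higher and 14 lower for pilocarpine over non-irradiated. With duct nuclei thinned to 1000 UMIs they were 108 higher for pilocarpine over non-irradiated. With subtraction of the level in nuclei with other cell types' genes they were 2131 higher and 2138 lower for saline over non-irradiated, 2003 higher and 2513 lower for pilocarpine over saline, 2051 higher and 2430 lower for pilocarpine over non-irradiated. With genes with 1 UMI they were 509 higher and 316 lower for saline over non-irradiated, 481 higher and 614 lower for pilocarpine over saline, 767 higher and 469 lower for pilocarpine over non-irradiated. With genes with 100 UMIs they were 149 higher and 97 lower for saline over non-irradiated, 76 higher and 196 lower for pilocarpine over saline, 71 higher and 26 lower for pilocarpine over non-irradiated. With cluster 4 only they were 528 lower for pilocarpine over saline, 77 higher and 170 lower for pilocarpine over non-irradiated. With the mean CPM over nuclei they were 351 lower for saline over non-irradiated, 478 higher for pilocarpine over saline, 412 higher and 251 lower for pilocarpine over non-irradiated. Subtraction sets many genes to 0 in 1 library, which by its construction makes large ratios and can turn signs.

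Over all alternatives, 128 of 913 list medians changed sign, but only 6 of these had been further from 0 than the counting spread of their middle gene. Of ratios of single genes, 86 of 2006 changed sign, and 36 of these had an interval that did not reach 1. In cluster 4, 21 list medians changed sign. Beside those below, they include granular tubule products at 0.32 for pilocarpine over non-irradiated, ENaC and aldosterone pathway genes at 0.03 for pilocarpine over saline, and ion transport genes at -0.21, Wnt ligands at -0.54, Wnt receptors at 0.03 and xenobiotic genes at -0.16 for saline over non-irradiated. Nuclear oxidative phosphorylation genes were at 0.17 there for pilocarpine over saline. The Wnt ligand median there is the ratio of the rule gene Wnt4. The 42 sign changes of values past their counting spread are given as log2 values. With 4 rule genes these were Mitochondrially encoded genes -0.11 for pilocarpine over saline. With no gene of other cell types allowed these were Skap1 -0.13 for pilocarpine over saline. With the rule applied after thinning these were Stac -1.4 for pilocarpine over saline, Ano1 -0.094 for pilocarpine over non-irradiated. With all nuclei of clusters 4 and 14 these were Scnn1a 0.17 and Skap1 -0.14 for pilocarpine over saline, Ano1 -0.054 and Slc12a2 -0.016 for pilocarpine over non-irradiated. With the deepest 10% of barcodes left out these were ENaC and aldosterone pathway -0.0087 and Duox2 -0.29 for saline over non-irradiated, Scnn1a 0.18 for pilocarpine over saline. With duct nuclei thinned to 1000 UMIs these were Scnn1a 0.12 for pilocarpine over saline, Scnn1a 0.061, Slc12a2 -0.068 and Slit2 0.12 for pilocarpine over non-irradiated. With subtraction of the level in nuclei with other cell types' genes these were Duox2 -0.57, Fkbp5 -2.85, H2-Q7 -2.46, Per2 -0.30 and Smgc 5.01 for saline over non-irradiated, Unfolded protein response -0.47, Per2 -0.30 and Slit2 0.043 for pilocarpine over non-irradiated. With cluster 4 only these were ENaC and aldosterone pathway -0.035 and Duox2 -0.51 for saline over non-irradiated, Adcy2 0.049, Ano1 -0.61, Bpifa2 1.14, Igsf21 0.18, Lgr4 0.0051, Oasl2 0.16, Scnn1a 0.60 and Skap1 -0.011 for pilocarpine over saline, Acinar secretory products -0.034, Unfolded protein response -0.082, Ano1 -2.69, Fkbp5 0.021, Klk1b5 0.20, Scnn1a 0.13, Slc12a2 -0.76 and Slit2 0.15 for pilocarpine over non-irradiated. With the mean CPM over nuclei these were Slit2 0.059 for pilocarpine over non-irradiated. The cause of these changes was not tested. Values within cluster 4, outside clusters 8 and 14 and as a mean over nuclei were added after the data were seen. Centring on the median gene and a limit of 1% mitochondrial UMIs turned no value that was past its counting spread. No paired analysis was possible because there was 1 library in each group. With 1 library a group, differences between mice, library preparation and hour of collection cannot be told apart from the treatment, and counting limits single genes in cluster 4 most in the pilocarpine library, which had 275371 UMIs there.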
